A study of Drosophila melanogaster with 3 samples.

Results

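Deaf1 is a Drosophila DNA-binding protein with a SAND domain that recognises sequences containing TTCG, and it owes its name to an element through which the Hox gene Deformed (Dfd) regulates itself. The positions of the tagged protein at the gene that encodes it, Deaf1 (FBgn0013799), are described here. The members were every peak summit inside the Deaf1 gene body or within 10 kb either side, in each of 5 peak lists. They numbered 5 of 8667 summits in the optimal set, and 7 of 30000 in the pooled and each of the 3 replicate lists. The optimal set was thresholded by the irreproducible discovery rate (IDR), which measures how alike peaks rank between lists.

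Chromatin was immunoprecipitated and sequenced (ChIP-seq) with an antibody against green fluorescent protein (GFP). All samples were whole embryos of both sexes pooled, collected at 0 to 24 hours, from 1 transgenic line in which Deaf1 carries GFP at its C terminus. The 3 biological replicates form 1 group, and the labels name no other genotype, treatment or stage, so the comparisons below are between positions within a list and between the Deaf1 locus and all genes. The labels do not say which promoter drives the fusion or whether the insertion carries sequence from around Deaf1. If it did, reads from the insertion and from the native gene could not be told apart. The number of reads is unknown. Signal is the peak caller's own value, not scaled between lists, so replicate values are given as multiples of the median signal of the replicate's own list (54.4, 52.7 and 41.1 in replicates 1, 2 and 3). With 1 group and 1 locus, the values are a description and no p-value is given.

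A transcription factor can act on its own gene when it binds there, and ChIP-seq records where the protein was recovered with DNA, not whether the gene's transcription depends on it. Genes on opposite strands whose starts lie close together share the sequence between them, so a summit in such a spacer belongs to both. Deaf1 lies on the plus strand of arm 3L at chr3L:19818174-19830686 on the dm6 build, a length of 12513 bp with 5 annotated transcripts. Of these, 3 begin at base 19818174 and 2 begin 928 bp farther downstream, at base 19819102. The gene to its left, Fibp, runs the other way and begins at base 19817967, which leaves a spacer of 206 bp between the starts of Fibp and Deaf1.

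The sequences below are shown because they hold 4 of the 5 IDR summits or, for the last, the position inside the gene with the highest pooled signal. The remaining IDR summit, at base 19815900 in the cyc 5′ UTR, lies outside the printed runs. They are plus-strand reference sequence of dm6 from RefSeq. Capitals mark each match, on either strand, to TTCG, TTCGG or CGATA and, in the spacer, to TATCGAT, so CGAA stands for TTCG on the minus strand. TTCGG contains TTCG, and TATCGAT overlaps CGATA. The spacer is chr3L:19817968-19818173 with its IDR summit at base 36 of the printed run, and the intron 1 of cyc is chr3L:19815496-19815754 with its summit at base 204. Each of the other windows holds its summit at base 51, and they are chr3L:19813433-19813533, chr3L:19813634-19813734 and chr3L:19818891-19818991.
Deaf1-Fibp spacer: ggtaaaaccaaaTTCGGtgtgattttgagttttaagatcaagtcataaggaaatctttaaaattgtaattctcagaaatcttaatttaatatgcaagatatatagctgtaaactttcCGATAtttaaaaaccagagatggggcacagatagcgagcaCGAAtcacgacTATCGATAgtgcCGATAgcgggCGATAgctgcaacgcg
cyc intron 1: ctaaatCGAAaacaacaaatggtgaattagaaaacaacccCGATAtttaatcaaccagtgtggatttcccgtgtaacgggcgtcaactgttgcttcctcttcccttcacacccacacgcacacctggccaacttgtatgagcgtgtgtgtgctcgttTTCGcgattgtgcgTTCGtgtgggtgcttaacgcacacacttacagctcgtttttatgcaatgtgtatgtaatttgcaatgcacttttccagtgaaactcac
Cyp305a1 upstream, stronger summit: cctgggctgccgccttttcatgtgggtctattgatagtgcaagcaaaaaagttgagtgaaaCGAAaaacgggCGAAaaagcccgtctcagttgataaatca
Cyp305a1 upstream, weaker summit: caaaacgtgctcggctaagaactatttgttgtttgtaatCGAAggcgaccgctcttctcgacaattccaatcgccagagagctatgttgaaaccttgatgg
Deaf1 intron 1, outside the IDR set: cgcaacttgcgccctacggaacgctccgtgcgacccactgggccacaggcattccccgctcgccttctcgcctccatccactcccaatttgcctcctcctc

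Tagged Deaf1 had IDR summits between the starts of Deaf1 and Fibp and at the starts of cyc and Cyp305a1 farther left. The summit shared by Deaf1 and Fibp was nearer to the Fibp start in the IDR set and in each replicate. Replicates 1 and 3 placed it inside the Fibp 5′ UTR, not between the starts. Of the 5 IDR summits, 1 lay in the spacer between Deaf1 and Fibp, 2 lay at the start of cyc and 2 lay upstream of Cyp305a1. None lay inside the Deaf1 gene body and none lay in the 10 kb downstream of it. The pooled list placed 2 of its 7 summits in the gene body, and replicates 1, 2 and 3 placed 1, 2 and 1 there. Every summit in the body lay in the 5′ UTR or in intron 1. No list placed a summit in the coding exons, in intron 2 or at the stop codon of the native gene. The last pooled summit lay 10247 bp before that codon. The codon ends the C terminus, where the fusion carries GFP, but the peak lists do not show where in the genome the insertion lies.

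**Figure D1:**
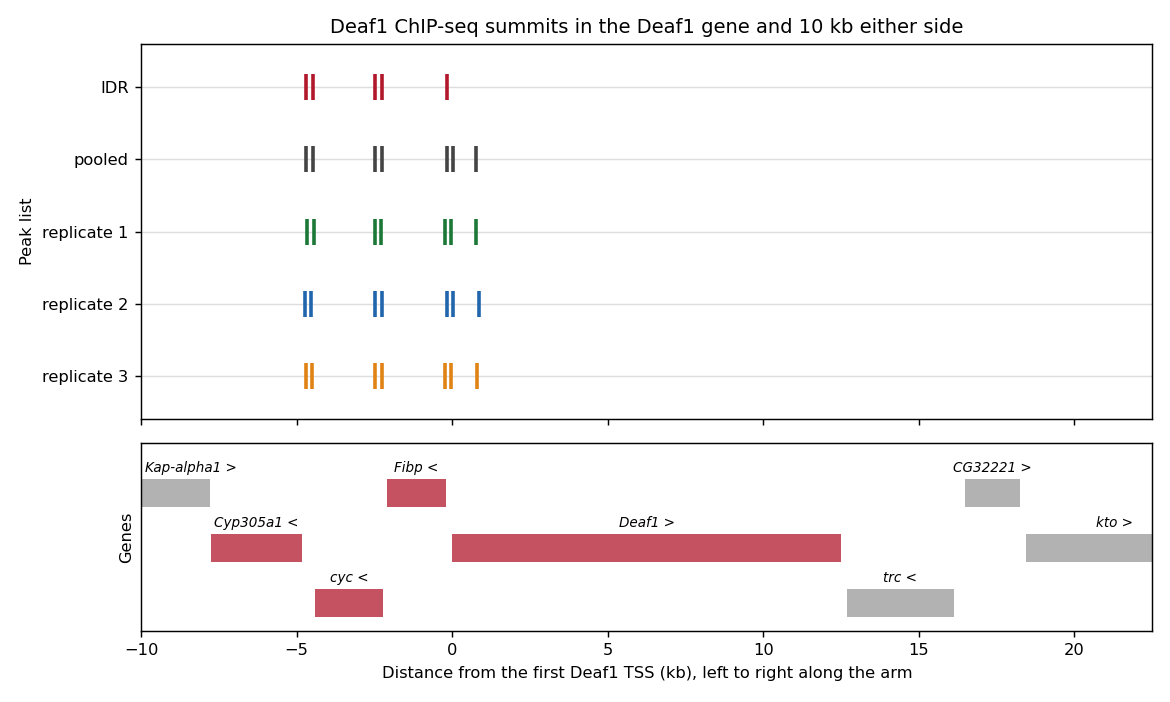
Summits of the 5 peak lists (upper panel, 1 tick per summit) and protein-coding genes (lower panel) against distance from the first Deaf1 start in kb. Genes with an IDR summit within 500 bp of a start are red and the others grey, and > or < gives the strand. All summits of all lists lie between 4743 bp to the left and 875 bp to the right of the Deaf1 start.

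A gene was called bound when an IDR summit lay within 500 bp of 1 of its annotated transcription start sites (TSSs). Deaf1 was bound by that rule, with 1 summit. Among all 13945 protein-coding genes, 3878 were bound, a background of 27.8%. Within the window, 4 of 8 protein-coding genes were bound, namely Deaf1, Fibp, cyc and Cyp305a1. They lie side by side, and Deaf1 and Fibp were called from the same summit.

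The summit that made Deaf1 a bound gene lay at base 19818003, 171 bp upstream of the first Deaf1 TSS and 36 bp upstream of that of Fibp, the fly orthologue of the human FGF1 intracellular binding protein. Its pooled signal was 890.0, rank 2583 of the 8667 IDR summits, against a median of 533.6 over all of them. The replicate signals were 280.0, 418.9 and 188.1 in replicates 1, 2 and 3, which are 5.15, 7.94 and 4.57 times the list medians. The mean was 5.89 ± 1.80 (SD, n = 3), against a median of 3.79 over the 8319 IDR summits held by a peak of each replicate, with the middle part of that distribution between 2.44 and 7.61 (quartiles). Replicate 2 was the highest, and the coefficient of variation, the SD as a percent of the mean, was larger at 16.0% of those IDR summits.

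The replicates did not agree on which side of the Fibp start the summit lay. Replicate 2 placed it 168 bp upstream of Deaf1, inside the spacer and 39 bp upstream of Fibp. Replicates 1 and 3 placed it 228 and 244 bp upstream of Deaf1, inside the Fibp 5′ UTR, 21 and 37 bp downstream of the Fibp TSS. The SD of the position was 40.1 bp, against a median of 19.6 bp over the IDR summits held by all replicates, and 19.1% of those had a larger one. In each list the summit was nearer to the Fibp TSS than to the Deaf1 TSS, and the peak lists cannot assign it to either gene.

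A second summit at the Deaf1 start, outside the IDR set, lay at base 19818203, 29 bp downstream of the first TSS and in the 5′ UTR. Its pooled signal was 141.6, with rank 13888 of 30000. The replicate values were 3.58, 1.05 and 1.95 times the list medians, with a mean of 2.19 ± 1.28 (SD, n = 3). The spacer summit was higher than this one in all replicates, by 1.44, 7.55 and 2.35 times in replicates 1, 2 and 3. Replicate 2, which had the highest value at the spacer summit, had the lowest here.

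The position of this second summit followed that of the first. It lay 202, 200 and 200 bp to the right of the spacer summit in replicates 1, 2 and 3, and 200 bp in the pooled list. It was therefore inside the gene, 32 bp downstream of the TSS, in replicate 2, and outside it, 26 and 44 bp upstream of the TSS, in replicates 1 and 3. The pairs at cyc and Cyp305a1 were spaced by 200 to 202 bp in the same lists. The smallest distance between neighbouring summits was 199 bp in every list, and 4020 neighbouring pairs of the pooled list (13.4%) lay 199 to 205 bp apart, so the 3 pairs of the window sit at or next to the smallest spacing that the lists hold. Which of the paired positions are separate binding events was not tested.

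**Figure D2:**
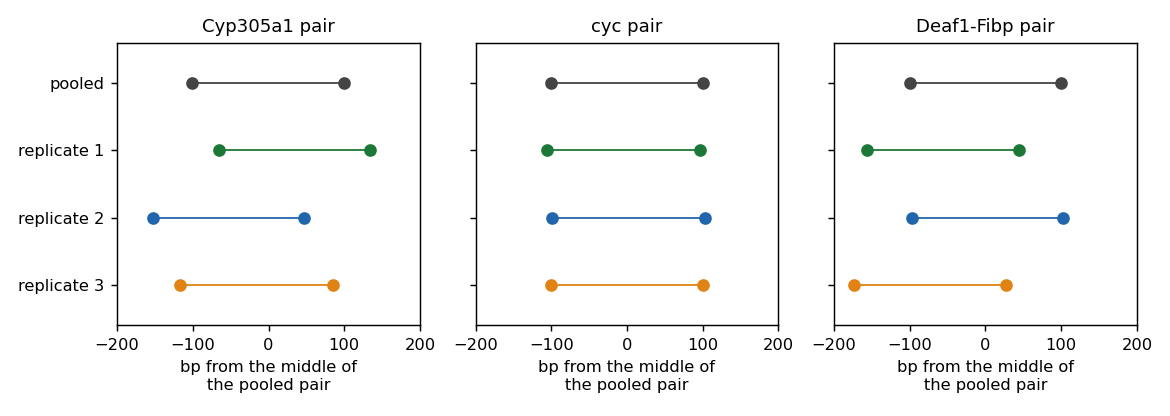
Positions of the 3 summit pairs of the window in the pooled list and in each replicate, in bp from the middle of the pooled pair; each line joins the 2 summits of a pair. The pairs at Cyp305a1 and at Deaf1-Fibp move as a unit between replicates with a spacing of 200 to 202 bp, and the cyc pair stays within 4 bp.

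**Figure D3:**
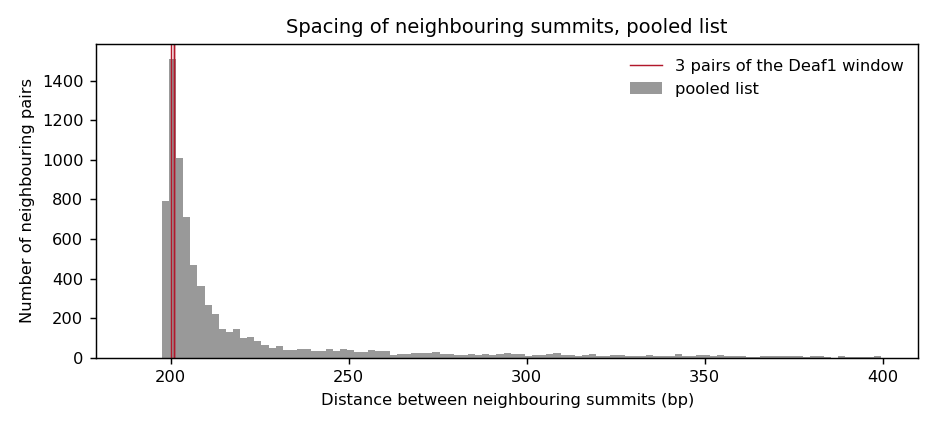
Number of neighbouring summit pairs of the pooled list by their distance in bp, in bins of 2 bp up to 399 bp, with the 3 pairs of the Deaf1 window as red lines. Counts start at 199 bp and are highest near it, where the red lines fall.

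Farther inside the gene, another position lay in intron 1 (545 bp, shared by the 3 longer transcripts), at base 19818941 in the pooled list, 161 bp upstream of the second TSS. Its pooled signal was 209.0, below the 256.1 of the weakest IDR summit, with rank 10275 of 30000. The replicate values were 1.53, 1.10 and 2.00 times the list medians, with a mean of 1.55 ± 0.450 (SD, n = 3). These were ranks 10510, 13951 and 8226 of 30000, so only in replicate 3 was it among the top 8667 peaks. The replicate summits lay 177, 53 and 121 bp upstream of the second TSS, a spread of 62.1 bp (SD), so each replicate had a weak summit before this start but they differed on where.

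The strongest signal of the window was not at Deaf1 but at cyc, which encodes Cycle, the bHLH-PAS partner of Clock in the circadian oscillator. The stronger of its summits lay in cyc intron 1 at base 19815699, 239 bp downstream of the cyc TSS and 2475 bp to the left of Deaf1. Its pooled signal was 1628.5, and the replicates gave 10.1, 11.8 and 11.2 times the list medians, with a mean of 11.0 ± 0.876 (SD, n = 3). It was the highest of the window in each replicate, and it exceeded the Deaf1-Fibp spacer summit by 1.95, 1.48 and 2.45 times. Its position varied by 3.06 bp (SD), and 94.9% of IDR summits held by all replicates varied more.

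The other cyc summit, at base 19815900 in the 5′ UTR and 38 bp downstream of the TSS, had a pooled signal of 1094.3. The replicates gave 7.09, 7.19 and 7.87 times the list medians, with a mean of 7.38 ± 0.420 (SD, n = 3). It lay below the stronger cyc summit in every replicate. It was above the Deaf1-Fibp summit in replicates 1 and 3 and below it in replicate 2, so the order of these positions is not settled by the replicates.

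Upstream of Cyp305a1, a cytochrome P450 gene, the stronger summit lay at base 19813483, 144 bp before the TSS, with a pooled signal of 841.5. The replicates gave 6.63, 5.54 and 5.12 times the list medians, with a mean of 5.76 ± 0.781 (SD, n = 3). It stood above the Deaf1-Fibp summit in replicates 1 and 3 and below it in replicate 2, and the means of these summits differ by less than either SD.

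The weaker Cyp305a1 summit, at base 19813684 and 345 bp before the TSS, had a pooled signal of 399.2 and the least replicate support of the IDR summits here. Replicate 1 gave 0.390 times its list median with a deposited −log10 q-value of 0.581, and replicate 3 gave 2.81 times. In replicate 2 no peak held this base: the nearest summit lay 53 bp to its left, at 4.34 times the list median, and its peak ended 16 bp before the base. The other 4 IDR summits were each held by a peak of all 3 replicates.

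**Figure D4:**
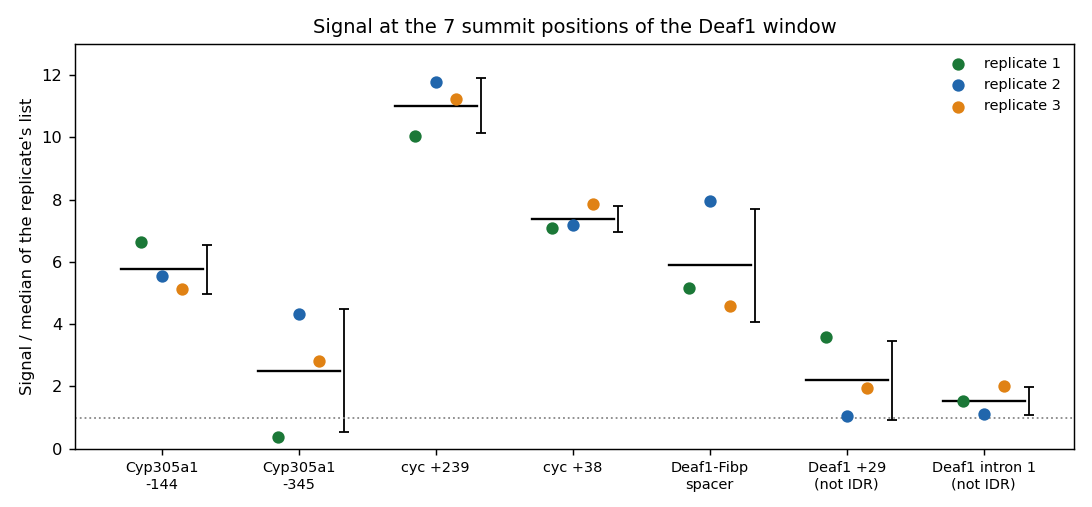
Signal at the 7 summit positions of the window as a multiple of the median of each replicate's list, from left to right along the arm, for the nearest summit of each replicate. Points are replicates, horizontal lines are means and vertical bars are ± SD (n = 3 each), and the dotted line marks the list median. The cyc +239 position is the highest in each replicate, and at the weaker Cyp305a1 position the replicates differ by 11.1 times.

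None of the 3 genes to the right of Deaf1 was bound. The distance from the TSS to the nearest IDR summit was 16301 bp for trc (tricornered, an NDR-family kinase), 16667 bp for CG32221 and 18611 bp for kto (kohtalo, the Med12 subunit of the Mediator kinase module). To the left, Kap-alpha1, an importin alpha gene, was also not bound, with its TSS 6251 bp from the nearest IDR summit. Of the 7 neighbours, 3 were bound, and these lie between Kap-alpha1 and Deaf1.

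The spacer summit was the last IDR summit before a stretch of 81.521 kb without one. The next lay in an intron of Mi-2 and of Su(Tpl), and 2.38% of the gaps between neighbouring IDR summits were longer. The stretch holds TSSs of 8 protein-coding genes, which are Deaf1 itself, trc, CG32221, kto, Papss, Rab8, Usp32 and Mi-2. It also holds 131 matches to TTCGG, 1.61 per kb, against 1.76 per kb over the 6 arms. Matches inside the transposon described below were not counted apart. In the pooled list the stretch was shorter, 29.275 kb from the intron 1 summit to a summit in the 5′ UTR of Papss, which was weak, with a signal of 42.3 and rank 28835 of 30000. To the left, the nearest IDR summit outside the window lay 23565 bp from the Deaf1 start.

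Part of the empty gene body is a transposon. Intron 2 of Deaf1 (8306 bp) holds a 412 element in the reference genome, at chr3L:19820341-19827846, a length of 7506 bp. In the IDR and pooled lists, 0 summits lay in any of the 30 annotated 412 elements of at least 5000 bp, and 23 of 8667 IDR summits (0.265%) lay in any transposon, although annotated transposons cover 5.93% of the arms. Whether reads in repeats were kept is not given in the sources used here, so the absence of summits in this element cannot be read as absence of binding. The coding exons lie outside the element and held none either.

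Against other genes, the count of summits around Deaf1 was above the middle, and the count in its gene body was below the median for its length. The Deaf1 window held 5 IDR summits, against a median of 2 (quartiles 0 and 3) in the same kind of window over 13945 protein-coding genes. Fewer were held by 85.5% of genes and more by 9.03%. Per 10 kb of window the value was 1.54 at Deaf1 and 0.492 in the median gene. In the pooled list the Deaf1 window held 7 summits, against a median of 5, and fewer were held by 60.6% of genes. Of the 618 protein-coding genes 10000 to 15000 bp long, 47.9% had 0 IDR summits in the body, as Deaf1 had, and the median was 1. In the pooled list the Deaf1 body held 2 summits, against a median of 3 for these genes. The 412 element takes up 7506 of the 12513 bp of the Deaf1 body, and gene lengths were not corrected for transposons. The body counts therefore do not show that Deaf1 is low for the sequence in which a summit could be called.

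By the strongest promoter summit, Deaf1 and Fibp shared rank 1662 of the 3878 bound genes, cyc had rank 996 and Cyp305a1 had rank 1750. The median of that signal over the bound genes was 740.9, against 890.0 at Deaf1 and Fibp. Of 6 genes linked to Deaf1 in earlier work, 2 were bound, a count near the 27.8% of all protein-coding genes. The forkhead factor gene foxo had rank 191, with a summit 2 bp from a TSS and a mean of 50.5 ± 5.35 times the list medians (SD, n = 3), and Dfd had rank 1009, with a summit 132 bp upstream and 10.9 ± 0.480 times (SD, n = 3). For both, each replicate lay above each replicate of the Deaf1-Fibp summit. The antimicrobial peptide genes Mtk and Drs and the autophagy genes Atg16 and Pi3K59F were not bound, with the nearest IDR summit 7750, 8518, 6401 and 4301 bp from a TSS.

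**Figure D5:**
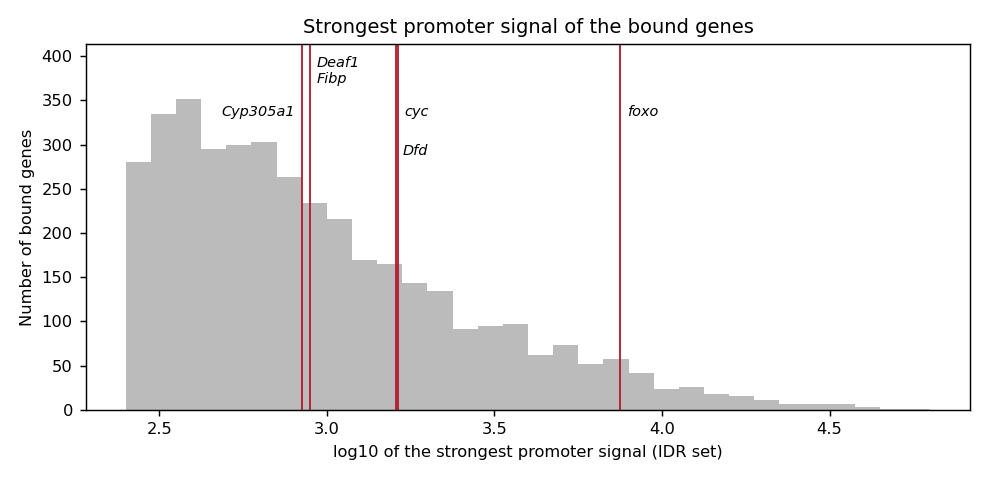
Histogram of the log10 of the strongest promoter signal of the 3878 bound genes in the IDR set, with red lines at Deaf1 and Fibp, the bound neighbours cyc and Cyp305a1, and the bound linked genes Dfd and foxo. Deaf1 lies to the right of the median signal of 740.9, left of cyc and Dfd and far left of foxo.

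Apart from Fibp, which shares the Deaf1 summit and so has the same values and was left out, the bound genes whose replicate values were most like those of Deaf1 were gro (Groucho, a corepressor), EndoG (endonuclease G), Trmt6 and Ent2 (a tRNA methyltransferase subunit and a nucleoside transporter, which share a summit) and RpS27, a ribosomal protein gene. Likeness was the Euclidean distance between log2 multiples over the 3 replicates, among 3706 genes, and it was 0.05, 0.07, 0.10, 0.10 and 0.10 for these, against a median of 1.86. For gro the replicate values were 5.03, 7.76 and 4.61 times the list medians, beside 5.15, 7.94 and 4.57 at Deaf1. This rests on 3 values per gene and describes only their level and spread.

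The word TTCG, which the protein is known to recognise, lay within 50 bp of 5 of the 5 IDR summits, which lie in 3 peak intervals. It lay within 50 bp of 66.3% of all IDR summits and in 55.9% of equal windows 300 bp to the right. At the summits as the replicates placed them, the count was 5, 4 and 5 of 5 in replicates 1, 2 and 3. The positions outside the IDR set, in the 5′ UTR and in intron 1, had no TTCG within 50 bp of the pooled summit. With the replicates' own summits, the first had 1 match in replicates 1 and 3 and 0 in replicate 2, and the intron 1 position had 2 matches in replicate 2 and 0 in replicates 1 and 3. The longer TTCGG lay within 50 bp of 1 of the 5, the Deaf1-Fibp spacer summit, against 28.9% of all IDR summits and 16.3% of equal windows 300 bp to the right. At the replicates' own summits, TTCGG was near the Deaf1-Fibp summit in replicates 1 and 2 but not in replicate 3. In replicate 2 it was also near the weaker Cyp305a1 summit. In the spacer sequence above, TTCGG is the first run of capitals, starting at base 13, with its centre 21 bp left of the IDR summit. At cyc intron 1 the nearest TTCG has its centre 30.5 bp left of the summit, and at the stronger Cyp305a1 summit 12.5 bp to the right.

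Most matches in the window had no summit, and only 1.55% of its 32513 bp lie within 50 bp of an IDR summit. Of 249 matches to TTCG, 8 lay in that part (3.21%), and of 57 matches to TTCGG, 1 did (1.75%). So small a part would leave most matches outside it wherever the summits fell. The Deaf1 gene body, which has no IDR summit, holds 18 matches to TTCGG. The density of TTCGG in the window, 1.75 per kb, was close to that over the 6 arms, 1.76 per kb.

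The right part of the spacer, next to Deaf1, holds a cluster of another word. From 250 bp before to 50 bp after the first TSS there are 5 matches to CGATA on both strands, and 2.30% of 19253 such windows at the TSSs of protein-coding genes hold at least as many (45.7% hold any). There are 2 matches to TATCGAT, which overlap each other on opposite strands, and 15.9% of the windows hold this word. In the same run, 2 of the 5 CGATA matches also overlap each other on opposite strands. Overlapping matches were counted separately in all windows. CGATA and TATCGAT belong to elements known as sites of the fly factors BEAF-32 and Dref, and a match of letters does not show that either was there. The CGATA matches start 16 to 89 bp upstream of the TSS, to the right of the spacer summit. The second summits of replicates 1 and 3, 26 and 44 bp upstream, fall in or beside them. Those of replicate 2 and the pooled list, 32 and 29 bp downstream of the TSS, lie to the right of them. In each of these lists the second summit keeps its spacing of 200 to 202 bp from the first, so its position is not independent of the first. No CGATA lies within 50 bp of any of the 5 IDR summits, against 14.3% of all IDR summits, and with 5 summits a count of none is near that share. At the summits as the replicates placed them, replicate 1 had 1 match, at the weaker Cyp305a1 summit.

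Base composition differed along the locus. The 101 bp around the spacer summit held 25.7% G and C, against a median of 46.5% (quartiles 35.6% and 53.5%) around all IDR summits. Around the intron 1 position the share was 65.3%, and around the 4 IDR summits of cyc and Cyp305a1 it was 42.6% to 45.5%. The spacer summit as placed in the IDR set thus lies in AT-rich sequence, as the printed run shows around its base 36. Replicates 1 and 3 placed it 57 and 73 bp farther left, in the Fibp 5′ UTR, where the share was not computed. The part of base composition in these signals was not tested.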

How the data were processed

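The labels give dm6 as the build of the deposited peak lists. Each of the 3 replicate alignments, and their pool, was compared with 1 control alignment to call peaks, and the optimal IDR set was made from those lists, per the file headers. Names of the aligner and caller and the IDR cutoff were not given in the sources used here; the control data were not used here. The deposited signal and −log10 q-value of each peak are the authors' own; the −log10 q-values share a ceiling (4.39 when pooled) and ranked nothing. Each relaxed list holds 30000 peaks, so its weak end includes background.

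Summits were placed against Ensembl release 115 genes with Python 3.11.15, pandas 2.3.3 and numpy 2.4.6, on the RefSeq copy of dm6. A replicate's value was that of its nearest summit among peaks holding the pooled summit, divided by the list median. Steps were tested on simulated data. Named genes were Deaf1, all genes overlapping the window, 6 genes linked to Deaf1 in earlier work, and the 5 most like it; genes of the stretch to the right were named after their values were seen. The members, words and lists were chosen with earlier results of these data known. Alternatives were window size, divisor, promoter distance, word window, overlap rule and leaving out each replicate.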

Additional observations from a re-analysis of the deposited data

How the results depend on the processing

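Of 63 alternative values, 50 were counted as the same and 13 as moved. Signals were the same if they moved by less than the replicate SD, and counts if they moved by at most 1.5 times. The percentages of genes with fewer summits have no replicate SD and fall under neither rule, and they were counted as moved. With the median of each replicate's top peaks as divisor, the mean multiples were 1.52 at the Deaf1-Fibp summit, 2.87 and 1.93 at the cyc summits, and 1.50 and 0.430 at the stronger and weaker Cyp305a1 summits (the last a shift within its SD over 2 replicates), and with the highest signal of the holding peaks they were 11.0 at the weaker cyc and 4.72 at the weaker Cyp305a1 summit. Within 500 bp of a Deaf1 TSS, the top peaks of replicates 1 and 3, as many as the IDR set holds, placed 2 and 3 summits in place of 1. TTCGG was near 3 of 5 summits within 100 bp, and near 2 and 0 at the summits of replicates 2 and 3, against 1. Genes with fewer summits than Deaf1 were 82.3% per 10 kb of window and 60.6% in the pooled list, against 85.5%. Leaving out each replicate gave 4.86 to 6.55 at the Deaf1-Fibp summit and 0.390 to 2.81 at the weaker Cyp305a1 summit (1.60 with both replicates that hold it); with the nearest summit of all 3 replicates, chosen after seeing the data, the latter was 2.51 ± 1.99 (SD, n = 3). The cause of these shifts was not tested, beyond the divisor being larger. Depth is unknown and no counting error is covered. No paired analysis was possible because all samples belong to 1 group.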
